A study of Mus musculus with 3 samples.

Results

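The proteasome genes were taken as every gene whose symbol begins with Psma, Psmb, Psmc, Psmd, Psme, Psmf or Psmg followed by a number. Of 20660 genes that could be named on the arrays, 50 met this rule, with 61 of the 27235 named probes. The cells were NIH3T3, a mouse embryonic fibroblast line, grown to confluency and collected after 24 h. They were left untreated (None), or treated with 20 μM AR7, a small molecule that binds the retinoic acid receptor alpha (RARα) and activates chaperone-mediated autophagy, or with 20 μM BMS614, a selective RARα antagonist. All cells were labelled wild type and were kept in medium with serum. The compounds were dissolved in DMSO, and whether the None culture received DMSO is not given in the sources used here. There was 1 array of Cy3-labelled RNA for each condition. Differences between conditions are thus given without a test, and nothing in the data shows how far separate cultures would vary.

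The 26S proteasome degrades proteins that carry ubiquitin. Its core particle is a barrel of stacked rings, with alpha subunits that gate the entrance and beta subunits that form the catalytic chamber. The 19S particle caps the barrel, with a base of ATPases that unfold the substrate and a lid that removes the ubiquitin chain. Other caps, the PA28 complexes and PA200, open the barrel without ATPases, and dedicated chaperones put the rings and the base together. In most cells the genes of the subunits are transcribed together, and the transcription factor NFE2L1 raises them when proteasome activity falls short.

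The authors deposited the scanner intensity of each spot. Values here are the median pixel intensity of a spot after RMA background correction and quantile normalization, on the log2 scale, and a gene is read through the probe with the highest mean signal. The share of the 55681 probes well above background was 55.4% on the None array, 61.2% on the AR7 array and 61.8% on the BMS614 array. Spot error was read from 256 probes printed 10 times on each array. For AR7 minus None, the SD of the difference over such spots fell from 0.33 for the dimmest probes to 0.05 for the brightest, and spot error is not the spread between cultures. All 10 fibroblast markers examined, among them Col1a1, Col1a2, Vim and Fn1, were well above background on every array. Of 12 markers of other cell types, 6 were well above background on every array, Kdr and Cd3e among them, and 4 were not on any, including Epcam and Gfap. The same amount of labelled RNA was hybridized for each condition and the arrays were quantile normalized, so the values are relative. They show neither the number of cells nor total RNA per cell. In such bulk samples a change in the share of cells expressing a gene cannot be told apart from a change per cell.

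Of the 50 proteasome genes, 47 were well above background on all 3 arrays and 3 were not on any array, so no gene was measured in some conditions only. The 3 dim genes were Psma8, the alpha subunit of the testis, Psmb11, the catalytic subunit of the thymus, and Psmb8, the chymotrypsin-like subunit of the immunoproteasome. Each of them was read by 1 probe. A further 7 symbols of the rule in the gene table, Psme2b and 6 pseudogenes, had no matched probe. No spot of the 61 probes was saturated or marked as an outlier. The rule also took Psmc3ip, a recombination cofactor, and Psme3ip1, a partner of Psme3, which are not proteasome parts.

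**Figure D1:**
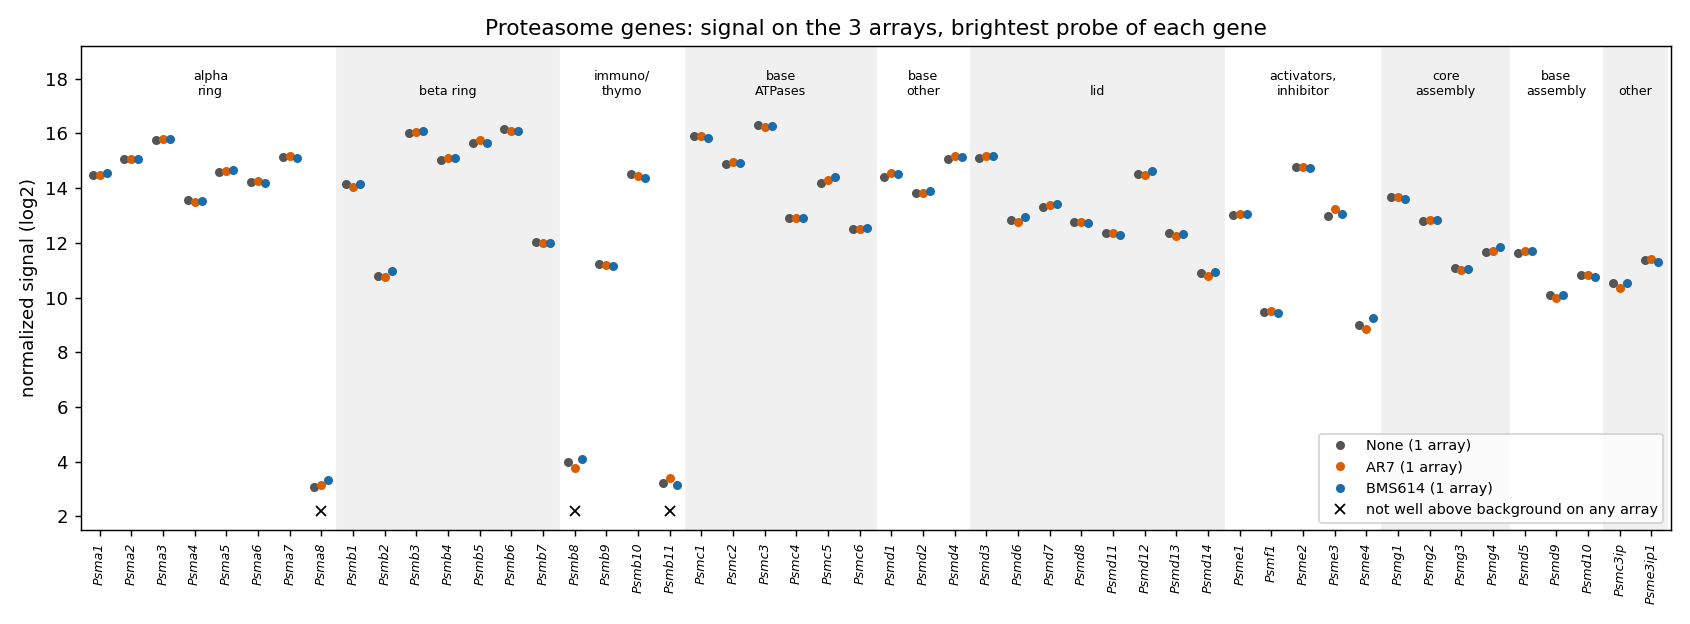
Normalized signal (log2) of the brightest probe of each of the 50 proteasome genes on the None, AR7 and BMS614 arrays, 1 point per array, ordered by role. For most genes the 3 points nearly coincide, Psme4 and Psme3 are spread most widely among the genes above background, and Psma8, Psmb8 and Psmb11, marked with a cross, were not well above background. Heights of different genes are not comparable, since probes differ in brightness.

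AR7 and untreated cells were compared to ask whether activation of chaperone-mediated autophagy came with a change of the other main proteolytic system. The transcripts of the proteasome were close to their untreated level. Over the 47 genes the median log2 difference was 0.01 (1.01-fold), with 25 genes higher and 22 lower, and the differences ran from -0.21 (Psmc3ip) to 0.24 (Psme3). With the processed signal scaled to the 75th percentile the median of the proteasome genes was -0.04, and -0.02 for BMS614, so its sign depends on the scaling. The median was -0.003 over the 13799 named genes that were well above background on every array. None of the 47 genes reached 2-fold, against 1.04% of all named genes tested, and none reached 1.2-fold, against 15% of all named genes and 2.05% of bright genes, those whose mean log2 signal over the arrays was 10 or more.

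The spread of the proteasome genes was narrow in absolute terms. The SD of the AR7 difference was 0.08 over the 47 genes, 0.20 over all named genes on the 3 arrays and 0.10 over the 7186 bright genes, among which were 45 of the 47 proteasome genes. Differences under 0.1 in size were seen for 36 of the 47 genes (76.6%), against 57.9% and 73.3% of these larger sets. Of the 47 genes, 9 (19.1%) lay past 2 SD of repeated spots, against 19% of the named genes on every array and 22% of the bright genes. They were higher for 5 genes, against a background of 9.87%, and lower for 4, against 9.13%.

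In the core particle, the 7 alpha subunits above background differed from None by -0.06 (Psma4) to 0.04 (Psma3) with AR7, all within 1 SD of repeated spots. Among the beta subunits, Psmb5, which carries the chymotrypsin-like activity, read 15.64 without additions, 15.76 with AR7 and 15.64 with BMS614. Only the AR7 array stood higher, by 0.12 against a spot SD of 0.05. The second Psmb5 probe differed by 0.003, and the brighter probe by 0.005 with the processed signal scaled to the 75th percentile and 0.06 in the deposited table. Psmb6, the caspase-like subunit, was lower by 0.06 with AR7, which is past 1 SD and within 2 SD of repeated spots. Psmb7, the trypsin-like subunit, differed by -0.02, and Psmb1, a structural subunit, by -0.11.

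In the 19S base, 2 of 3 non-ATPase subunits were higher with AR7 by more than 2 SD of repeated spots. Among the named genes on every array, 9.87% were higher by as much. Psmd1, a scaffold of the base, read 14.42, 14.56 and 14.50 on the None, AR7 and BMS614 arrays, and Psmd4, a ubiquitin receptor, read 15.06, 15.18 and 15.14. For both, the None array was the lowest, with AR7 differences of 0.15 and 0.12 against a spot SD of 0.05. With the processed signal scaled to the 75th percentile these were 0.07 and 0.04, within 2 SD. Psmd2, the other scaffold, differed by 0.01, and by -0.06 with the processed signal. Of the 6 ATPases, Psmc5 was higher by 0.10, past 2 SD, and by 0.07 and within 2 SD with 75th percentile scaling, and the others ran from -0.08 (Psmc3) to 0.09 (Psmc2). The second probes of Psmc1 and Psmc2 were higher by 0.17 and 0.21.

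In the lid, 2 of 8 genes were lower with AR7 by more than 2 SD of repeated spots, and none was higher by as much. Among the named genes on every array, 9.13% were lower and 9.87% higher by as much. Psmd14, the deubiquitinase that removes the chain from the substrate, read 10.91 without additions, 10.80 with AR7 and 10.93 with BMS614, a difference of -0.11 with AR7 or -2.06 times the spot SD. Psmd13, a structural lid subunit, differed by -0.13, also past 2 SD. The other 6 lid genes ran from -0.07 (Psmd6) to 0.10 (Psmd7).

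The assembly chaperones showed small differences with AR7. Psmg1, Psmg2, Psmg3 and Psmg4, which build the core particle, differed by -0.02, 0.01, -0.08 and 0.02. Of the base chaperones, Psmd10 differed by 0.01 and Psmd5 by 0.09. Psmd9 gave -0.12 on its brighter probe and 0.12 on its other probe, so that its direction depends on the probe. Psmc3ip, which is no proteasome part, was lower by 0.21, with 10.54 on the None array, 10.33 with AR7 and 10.52 with BMS614.

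**Figure D2:**
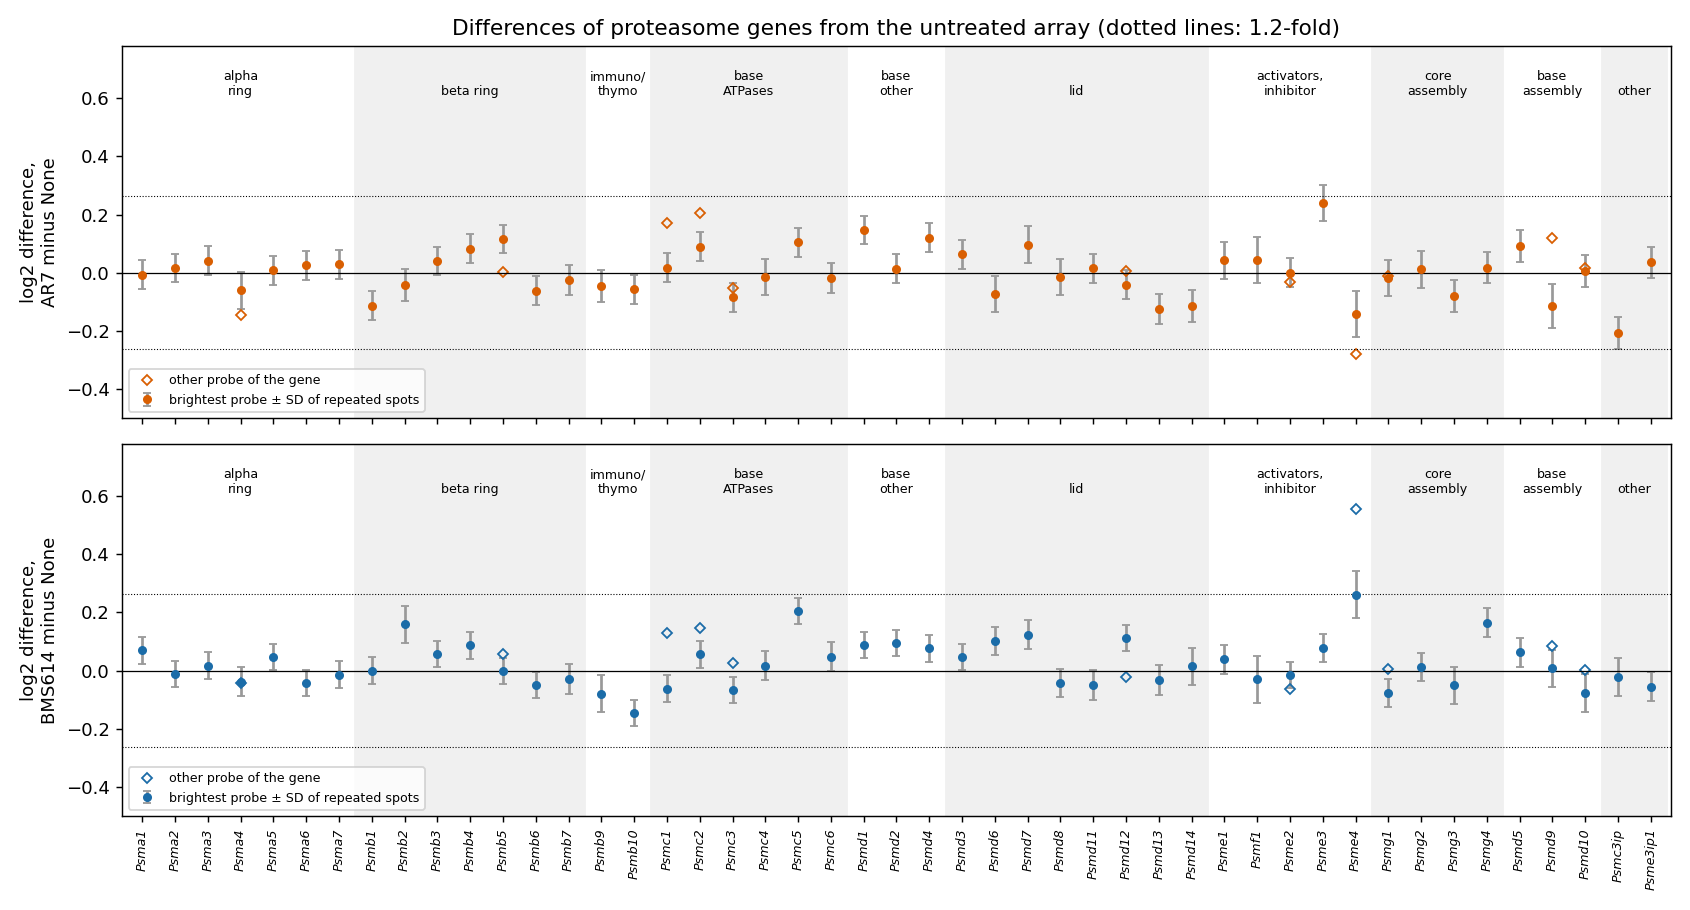
Log2 difference from the None array of each of the 47 proteasome genes above background, for AR7 (upper panel) and BMS614 (lower panel), with the SD of repeated spots as error bars, open diamonds for second probes and dotted lines at 1.2-fold. Filled points stay within the dotted lines in both panels, and the second probe of Psme4 lies beyond them in both, at -0.28 with AR7 and 0.56 with BMS614.

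BMS614 and untreated cells were compared to ask the same of a conventional RARα antagonist. Both comparisons with None use the same None array, so their values stand side by side and are not independent. The median log2 difference of the 47 genes was 0.01 (1.01-fold), with 26 genes higher and 21 lower, and 0.001 over the 13799 named genes on all 3 arrays. The differences ran from -0.15 (Psmb10) to 0.26 (Psme4), which is just under 1.2-fold. None of the 47 genes reached 2-fold, against 1.07% of named genes tested, and none reached 1.2-fold, against 16.9% of named genes and 3.42% of the bright genes. Past 2 SD of repeated spots lay 9 genes (19.1%), against 26.1% of the named genes on every array and 30.4% of the bright genes. Of these, 8 were higher, against a background of 13.7%, and 1 was lower, against 12.5%.

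The 8 genes higher with BMS614 were spread over the complex and were Psmb2, Psmc5, Psmd2, Psmd6, Psmd7, Psmd12, Psme4 and Psmg4. Psmc5, an ATPase of the base, read 14.20, 14.30 and 14.40 on the None, AR7 and BMS614 arrays, with the None array lowest and BMS614 higher by 0.20 against a spot SD of 0.05. Psmg4, a chaperone of the core particle, read 11.68, 11.70 and 11.85, so that only the BMS614 array stood apart, by 0.17. Psmb2, a structural beta subunit, read 10.79, 10.75 and 10.95, higher with BMS614 by 0.16. The lid subunits Psmd7, Psmd12 and Psmd6 were higher by 0.12, 0.11 and 0.10, although the second Psmd12 probe differed by -0.02. With the processed signal scaled to the 75th percentile, Psmb2, Psmd2, Psmd7 and Psmd12 were within 2 SD, at 0.12, 0.02, 0.08 and 0.06. The catalytic subunits Psmb5, Psmb6 and Psmb7 differed by -0.001, -0.05 and -0.03, the ubiquitin receptor Psmd4 by 0.08 and the deubiquitinase Psmd14 by 0.01.

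The inducible subunits of the immunoproteasome, which interferon raises and which replace the catalytic beta subunits, were read by Psmb9 and Psmb10. Psmb8 was not well above background. Psmb10 read 14.52 without additions, 14.46 with AR7 and 14.37 with BMS614, the only proteasome gene lower by more than 2 SD of repeated spots with BMS614, at -0.15. Psmb9 read 11.22, 11.17 and 11.14, with differences of -0.05 and -0.08. For both the None array was the highest. The PA28 subunits that act with them, Psme1 and Psme2, differed by 0.04 and -0.0002 with AR7 and by 0.04 and -0.01 with BMS614.

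Psme1 is the one proteasome gene printed at 10 spots of each array, which gives its own spot error. Its level was 13.01 ± 0.17 (SD, n = 10 spots) without additions, 13.06 ± 0.13 with AR7 and 13.05 ± 0.14 with BMS614. The difference between spots at the same position was 0.04 ± 0.06 for AR7 and 0.04 ± 0.04 for BMS614. The AR7 differences of the 10 spots ran from -0.03 to 0.14, on both sides of 0.

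Among 8 genes of antigen processing examined beside them, 7 were above background on all 3 arrays, with a median difference of 0.01 with AR7 and -0.09 with BMS614. Tap1 and Tap2, which carry peptides into the endoplasmic reticulum, differed by -0.08 and -0.09 with AR7 and by -0.21 and -0.06 with BMS614. B2m, the light chain of MHC class I, differed by 0.10 and 0.02. Irf1, a transcription factor of the interferon response, differed by 0.04 and -0.09 on its brighter probe and by -0.06 and 0.63 on the other. Nlrc5, a transactivator of MHC class I genes, differed by 0.25 and -0.32 on its brighter probe and by -0.09 and -0.17 on the other. The other probes of these genes, and of the further lists below, were taken without a filter on background, so some may be dim. Erap1, a peptidase that trims peptides, was lower by 0.47 and 0.38, from a dim probe with a spot SD of 0.33 and 0.28.

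The activators held the genes farthest from the rest. Psme3, which forms the PA28γ cap of the nucleus, read 12.99 without additions, 13.23 with AR7 and 13.07 with BMS614. The AR7 array was the highest, by 0.24 (1.18-fold) against a spot SD of 0.06, the largest difference with AR7 among the 47 genes, and BMS614 stood 0.08 above None. This gene has 1 probe. Under every alternative way of processing tried, Psme3 was higher with AR7 than without additions, by 0.18 to 0.24. For a gene with 1 probe, only the changes of background correction and scaling could move this value. Psmf1, the PI31 protein that binds and inhibits the core particle, differed by 0.04 with AR7 and -0.03 with BMS614.

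Psme4 encodes PA200, a cap of the core particle known for roles in the nucleus and in sperm, where it serves the degradation of acetylated histones. Its brighter probe read 9.01 without additions, 8.87 with AR7 and 9.27 with BMS614, and its second probe read 7.69, 7.41 and 8.24. On both probes the order of the arrays was the same, with AR7 lowest and BMS614 highest. The differences with BMS614 were 0.26 and 0.56, against a spot SD of 0.08 and 0.12. Those with AR7 were -0.14 and -0.28, or -1.78 and -2.38 times the spot SD.

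Before background correction and normalization the median spot intensity of the brighter Psme4 probe was 559.5 on the None array, 586.5 on the AR7 array and 846 on the BMS614 array, and that of the second probe was 290, 295 and 480. The 75th percentile of all spots was 692, 780.5 and 909 on the same arrays. The BMS614 array was the brightest for all 58 proteasome probes above background, so the order of the scanner values alone says nothing of Psme4, and both differences rest on the scaling between arrays. At the level of probes, the second Psme4 probe was the only 1 of 58 proteasome probes past 1.2-fold lower with AR7, against 9.94% of all probes tested, and the only 1 past 1.2-fold higher with BMS614, against 13.2%.

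AR7 and BMS614, given at the same dose and for the same time, were also compared directly, which leaves out the None array. The median difference, AR7 minus BMS614, was -0.002 over the 47 genes and -0.002 over the named genes on all 3 arrays. None of the 47 genes reached 2-fold, against 1.05% of named genes tested. Psme4 alone was past 1.2-fold, lower with AR7, against 17.2% of named genes in either direction and 8.6% lower, and none of the 45 bright proteasome genes was, against 3.13%. Psme4 had a difference of -0.40 (1.32-fold lower with AR7) on its brighter probe and -0.84 (1.78-fold lower) on the second, at -4.99 and -8.29 times the spot SD. The next lowest were Psmb2 (-0.20), Psmc3ip (-0.19), Psmd6 (-0.18) and Psmd12 (-0.15). The highest were Psme3 (0.16), Psmb5 (0.12), Psme3ip1 (0.09), Psmb10 (0.09) and Psmd10 (0.08). The second Psmb5 probe went the other way, at -0.06.

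Between the compounds 16 of the 47 genes (34%) lay past 2 SD of repeated spots, against 28.5% of the named genes on every array and 38.9% of the bright genes. With AR7 4 were higher, against a background of 14.1%, and 12 lower, against 14.3%. The 12 include Psmc3ip, which is no proteasome part. Of the 45 bright proteasome genes 4 were higher and 11 lower, against 1432 and 1362 of the 7186 bright genes. All 10 fibroblast markers were below 0 in this comparison, 5 of them past 2 SD, with a median of -0.07, and their part in the result was not tested. Of the lid, 4 of 8 genes were among the 12 (Psmd6, Psmd12, Psmd13 and Psmd14), and none was higher past 2 SD. Among the 11 genes read by 2 probes the gap between their probes had a median of 0.08 for this comparison, and for 7 of the 11 both probes gave the same direction, as they did for 9 with AR7 against None and for 5 with BMS614 against None. Psmd12, lower past 2 SD on its brighter probe, differed by 0.03 on its other probe.

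**Figure D3:**
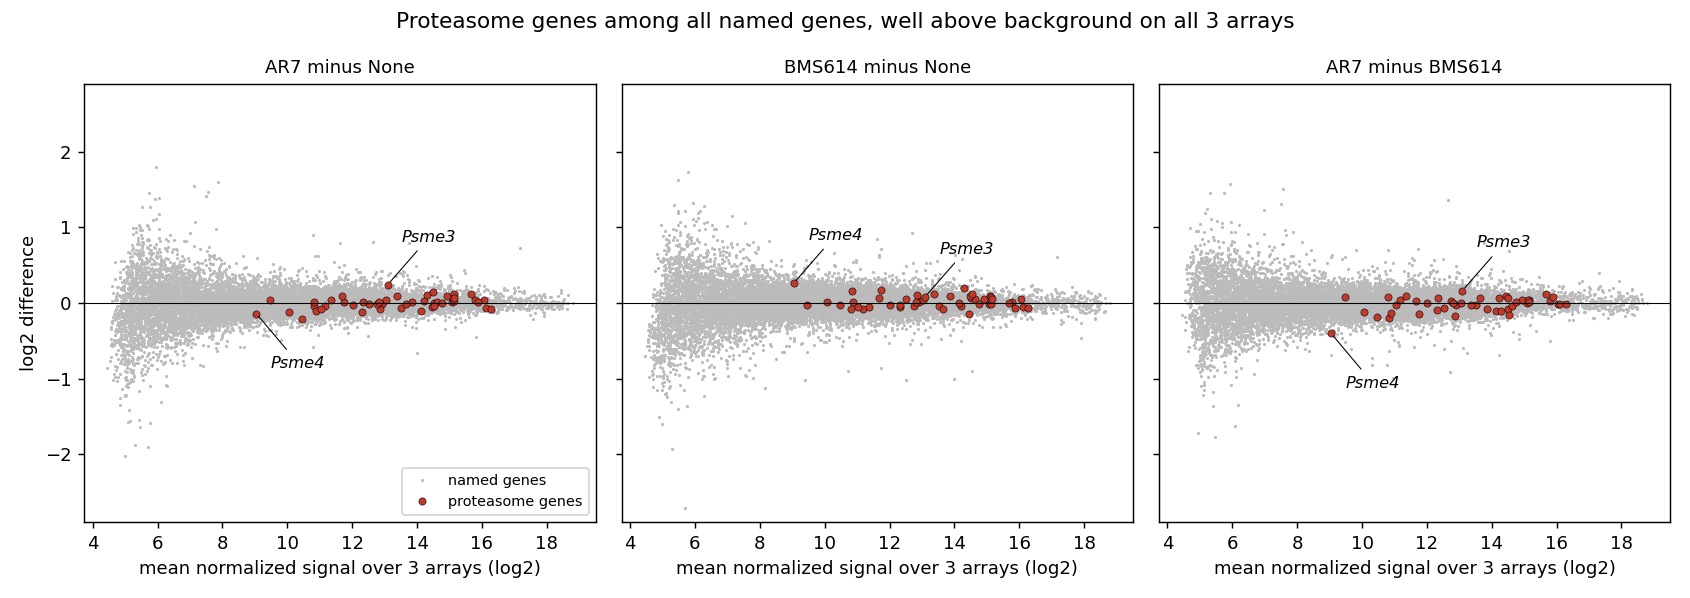
Log2 difference against the mean normalized signal (log2) for the named genes that were well above background on every array (grey) and for the 47 proteasome genes (red), for AR7 minus None, BMS614 minus None and AR7 minus BMS614. The proteasome genes lie at medium to high signal close to 0, and Psme4 is the lowest of them in the third panel, at -0.40.

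**Figure D4:**
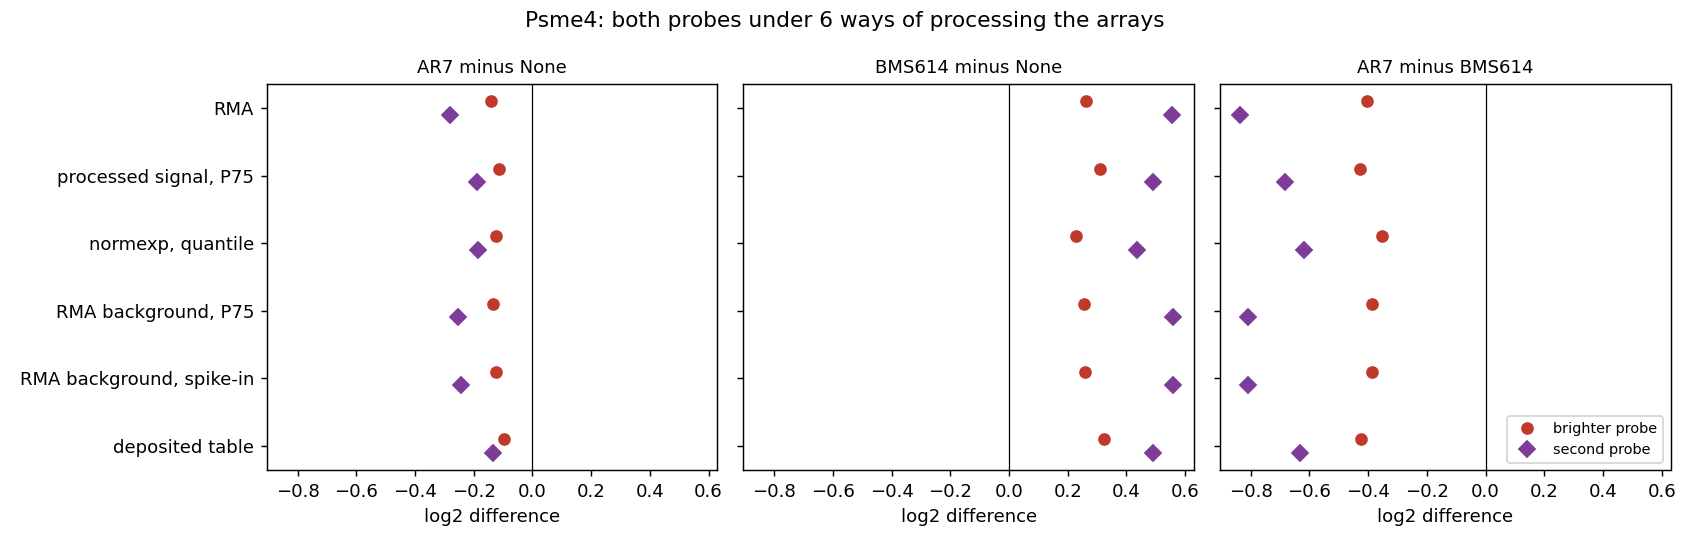
Log2 difference of the brighter (circle) and second (diamond) Psme4 probe in the 3 comparisons, on a common axis, under RMA and 5 other ways of background correction and scaling, where P75 stands for scaling to the 75th percentile. Both probes stay below 0 for AR7 minus None, above 0 for BMS614 minus None and below 0 for AR7 minus BMS614 in all 6.

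The promoters of Psme4, Psme3, Psmb5 and Psmb6 are shown for the activators that differed most and for a pair of catalytic subunits that carry the motif. They run from 100 bases before the start of transcription to 20 bases after its first base, from RefSeq on GRCm38.p6, 5′ to 3′ on the strand of the gene. Capitals mark TGACNNNGC, the core of the antioxidant response element that NFE2L1 and NFE2L2 bind, searched on both strands. Psme4 lies at chr11:30771675-30771794 (+), Psme3 at chr11:101316113-101316232 (+), Psmb6 at chr11:70525257-70525376 (+) and Psmb5 at chr14:54617976-54618095 (-).
Psme4: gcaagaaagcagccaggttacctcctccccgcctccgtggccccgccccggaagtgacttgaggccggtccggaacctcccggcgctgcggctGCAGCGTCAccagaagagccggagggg
Psme3: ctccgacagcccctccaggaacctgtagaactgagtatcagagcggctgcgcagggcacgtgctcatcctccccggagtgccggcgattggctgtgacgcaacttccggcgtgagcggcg
Psmb6: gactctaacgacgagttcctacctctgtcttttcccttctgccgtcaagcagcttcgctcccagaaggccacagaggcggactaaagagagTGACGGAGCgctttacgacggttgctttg
Psmb5: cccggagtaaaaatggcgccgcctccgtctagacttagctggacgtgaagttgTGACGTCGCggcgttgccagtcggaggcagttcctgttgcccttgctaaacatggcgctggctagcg

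The motif was found in the Psme4, Psmb5 and Psmb6 windows, on the opposite strand in Psme4, and not in that of Psme3. In the full entries, from 250 bases before to 50 after the start, it was present for 6 of the 40 proteasome genes with an entry (15%), namely Psmb5, Psmb6, Psmc6, Psmd9, Psmd12 and Psme4, and for 15.3% of 16373 named genes. Of these 6 genes, only Psme4 passed 1.2-fold in any of the comparisons. A match of letters is a description of the sequence and says nothing of binding.

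Genes that work with the proteasome but carry other names were read through lists of their own. Of 11 symbols of proteasome parts and partners, 8 were matched, and all 8 were well above background on every array, with a median difference of -0.03 with AR7 and 0.02 with BMS614. Adrm1, a ubiquitin receptor of the base, differed by 0.08 and 0.05, and Sem1, a small lid subunit, by -0.11 and -0.19. Pomp, the chaperone that matures the core particle, was higher by 0.14 with AR7, past 2 SD of repeated spots, and by 0.07 with BMS614. Its other probe read 0.00 in both and was not checked against background, so it may carry no information. Uchl5, a deubiquitinase of the base, differed by -0.12 and 0.06.

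Of the 7 genes of the NFE2L1 pathway 6 were above background, and none was past 1.2-fold on its brighter probe, where 15% of named genes were with AR7 and 16.9% with BMS614. Nfe2l1 read 8.44 without additions, 8.32 with AR7 and 8.45 with BMS614, with differences of -0.12 and 0.01 against a spot SD of 0.12. Nfe2l2 differed by 0.02 and -0.01. Ddi2, the protease that releases NFE2L1, differed by 0.09 and 0.14 on its brighter probe. Its other probe, not checked against background, gave 0.13 and 0.27, the last past 1.2-fold. Syvn1, a ligase that acts on NFE2L1 at the endoplasmic reticulum, differed by 0.15 and 0.12. Ngly1, which removes its sugar chains, stayed too close to background to be read.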

How the data were processed

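The samples were grouped by the treatment in their labels. The authors deposited Agilent Feature Extraction (10.7.3.1) files with the intensity of each spot, not scaled between arrays, along with a value table. On each array the values of that table follow the background-subtracted intensity on a linear scale, and they served as an alternative. The methods name RMA and the oligo package. Here the median pixel intensity of each spot was corrected with the RMA convolution background, written out in R 4.3.3 since the oligo package was not used, then quantile normalized over the 3 arrays with limma 3.58.1. Controls and outlier spots were left out and spots of a probe averaged. The tables were made with Python 3.11.15, numpy 2.4.6, pandas 2.3.3 and matplotlib 3.10.9. Probes were named by RefSeq accession through a table of GRCm38.p6.

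A gene was tested where its probe was well above background on at least 1 array compared. A probe dim on the other counts by a bound, the higher of its own signal and the lowest signal of probes well above background there. Genes were counted at 1.2-fold and 2-fold. With 1 array per condition, their number limits the precision and no test was made. The spot SD was pooled in 10 bins of signal. The proteasome genes, the lists and the rule for named genes (catalytic, ubiquitin-handling, activating, inhibiting and assembly genes, those past 1.2-fold or dim, and the 5 highest and 5 lowest of each comparison) were chosen with earlier results of these data known. Counts past 2 SD and under 0.1, and the promoters shown, were chosen after the values were seen. Simulated arrays served to test the counting.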

Additional observations from a re-analysis of the deposited data

Results flagged for a closer look

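Psme4 and Psmd6 differed from the None array in opposite directions with AR7 and BMS614, past 1 SD of repeated spots on every probe of the gene. This is a loose rule, and the share of all named genes that meet it was not counted. Of the named genes on every array, only 51.8% lay within 1 SD with AR7 and 43.7% with BMS614. In the deposited table the AR7 difference of Psmd6 was -0.060, within its spot SD of 0.063. The direct difference, AR7 minus BMS614, was -0.40 on the brighter Psme4 probe and -0.18 for Psmd6, a lid subunit with 1 probe that read 12.84 without additions, 12.77 with AR7 and 12.95 with BMS614. With 1 array per condition, the difference between the compounds was not tested. Psmd6 kept under 1.2-fold in every comparison of the report.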

How the results depend on the processing

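No paired analysis was possible because no condition has a second array, and no array could be left out. The mean pixel intensity could not be used, since the files used here give the median. Over the alternatives, the median difference of the proteasome genes ran from -0.04 to 0.01 with AR7, from -0.02 to 0.02 with BMS614 and from -0.01 to 0.003 between the compounds, so the sign of these medians is not settled. Against the same spot SD, 4 of the 9 genes past 2 SD with AR7 (Psmb1, Psmc3ip, Psmd13 and Psme3), 5 of 9 with BMS614 (Psmb10, Psmc5, Psmd6, Psme4 and Psmg4) and 10 of 16 between the compounds stayed past it in the same direction under every alternative, a count added after the values were seen. The count past 2-fold was 0 under every alternative. For BMS614, the count past 1.2-fold, 0, became 1 with 75th percentile scaling of the processed signal, in the deposited table and when all probes of a gene were averaged, with Psme4 the gene in each. At 1.1-fold the counts were 4 for AR7, 5 for BMS614 and 7 between the compounds. Between the compounds the count of 1 became 3 without a filter on dim probes, 0 with the 20S and 19S subunits only and 0 at 1.5-fold, as their construction gives. Scaling on the spike-in controls moved the median of all genes by 0.18 for AR7 and 0.34 for BMS614, and values there, as in the deposited table, are relative to that median. Of 1128 differences of single genes under the alternatives, 65 had the opposite sign, among genes no farther than 0.12 from 0, so directions of such genes are not settled. The 1128 include values fixed in advance. Changing the filter on background gives the main value for all 47 genes by construction. Averaging probes can move only the 11 genes with more than 1 probe. These alternatives thus add nothing to counts that held under every alternative for the genes they cannot move. Psme4 kept its direction, between -0.21 and -0.10 with AR7, 0.23 and 0.41 with BMS614 and -0.62 and -0.35 between the compounds.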

Other observations

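Ubiquitin genes and the shuttle factors that bring substrates to the proteasome were examined as well. Of 14 symbols 13 were matched, all well above background on the 3 arrays, with a median difference of 0.02 with AR7 and -0.004 with BMS614. Rad23b, a shuttle factor, differed by -0.01 with AR7 and by -0.04 with BMS614. Uba6, an enzyme that activates ubiquitin in parallel to Uba1, was past 1.2-fold with BMS614, the 1 gene of this list whose brightest probe was, against 16.9% of named genes. It was higher by 0.38 with BMS614 and by 0.21 with AR7 against a spot SD of 0.08. Its other probe was higher by 0.21 with BMS614 and 0.18 with AR7. Of the other probes of Rps27a, a ribosomal protein made as a fusion with ubiquitin, 1 was lower by 0.31 with AR7 and 0.34 with BMS614 and 1 differed by 0.01 and -0.08. These other probes, that of Uba6 included, were not checked against background. Ubqln1, a shuttle factor, was higher by 0.20 with AR7 and 0.02 with BMS614, against a spot SD of 0.05. Ubqln4 differed by 0.13 and -0.09.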
